A study of Homo sapiens with 6 samples.

Results

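Plasminogen activators and matrix metalloproteinases cut the proteins that surround a cell, and tissue inhibitors of metalloproteinases (TIMPs) hold the metalloproteinases in check. The 9 genes described here are PLAU, PLAT and PLAUR of the plasminogen activator system, the metalloproteinase genes MMP2, MMP14 and MMP15, and the inhibitor genes TIMP1, TIMP2 and TIMP3. They were chosen by name, and all 9 had a row among the 14034 rows of the count table. Messenger RNA had been counted in JHH-4, an established line from a human hepatocellular carcinoma, in 3 Control libraries labelled WT and 3 libraries of cells that overexpressed hsa-miR-885-5p from a plasmid carrying the primary microRNA. The series describes the 3 libraries per group as technical replicates and does not state whether they came from separate cultures. P-values therefore measure only the spread between these libraries, which cannot be taken as spread between cultures. The sources used here do not say what the Control cells were given, and both groups grew in the same medium.

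Urokinase (PLAU) and tissue-type plasminogen activator (PLAT) are serine proteases that turn plasminogen into plasmin, and the urokinase receptor (PLAUR) holds urokinase at the cell surface. MMP14 and MMP15 are metalloproteinases anchored in the membrane, whereas MMP2 is a secreted gelatinase that MMP14 activates with TIMP2 as a bridge. TIMP1 and TIMP2 are soluble inhibitors, TIMP3 is bound to the matrix, and in liver tumours this system is known for its part in invasion and matrix turnover.

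A microRNA lowers messenger RNAs mainly through sites in the 3′ UTR that pair with its seed. The mature sequence of miR-885-5p (RefSeq, GRCh38.p14, chr3:10394531-10394552, minus strand) is shown because the sites were searched from it, with the seed, bases 2 to 8, in capitals. The windows below it are the 1 site found in the 9 genes and, for comparison, the 1 8mer found among the tested genes of the role lists used further on, and a 7mer-m8 of ADAM12. They are written as DNA from GENCODE 29 transcripts, 5′ to 3′, with the bases that match the seed, and the A after it where there is one, in capitals.
hsa-miR-885-5p: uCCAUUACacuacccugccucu
TIMP2 7mer-A1: gtaagatgtcaTAATGGAccagtccatgt
ADAMTS9 8mer: tgcccgctgcaGTAATGGAcgtttgtgtga
ADAM12 7mer-m8: tttttggaacaGTAATGGcagcttctagt

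The TIMP2 site lies at chr17:78853919-78853925 (GRCh38, minus strand), at base 1742 of a 3′ UTR of 2690 bases. The longest annotated 3′ UTRs of the other 8 genes, from 362 bases in PLAUR to 3666 in TIMP3, held none of the letters searched, which were GTAATGGA (8mer), GTAATGG (7mer-m8), TAATGGA (7mer-A1) and TAATGG (6mer). Of 12308 tested genes with a 3′ UTR, 30.4% held a site of any of these types, 11.3% a 7mer-A1 and 8.01% an 8mer or 7mer-m8. The median length was 1249 bases for the 9 genes and 1390 for all. TIMP2, with its site, was higher in the miR-885-5p libraries, and PLAUR, PLAT and MMP15, which were lower, were among the genes with no match. Whether miR-885-5p acted directly on any of these genes was not tested. Fold changes of genes with and without a site were not compared, and coding sequences and other kinds of site were not searched. The ADAMTS9 window lies at chr3:64516014-64516021 (minus strand) and the ADAM12 window at chr10:126013176-126013182 (minus strand). Role-list genes with a site of any type went both ways. FURIN, ADAM10, ADAM12, MMP16 and ADAMTS5 were called higher, and ADAMTS9, ADAM9, HABP2 and ADAMTS15 lower. SERPINI1, ADAMTS1, ADAMTS12 and ADAMTS20 also held a site and were not called.

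TIMP3 and MMP14 more than doubled with miR-885-5p, TIMP2 and TIMP1 rose less, and PLAUR, MMP15 and PLAT fell. PLAU and MMP2 did not pass the test. Of the 9 genes 4 were higher and 3 lower at an adjusted p below 0.05 in edgeR's quasi-likelihood test with Benjamini-Hochberg adjustment over all 14034 genes, where 52.9% of all genes were called, 26.3% higher and 26.5% lower. The groups did not overlap for the same 4 higher and 3 lower genes, against 60.5% of all genes, 30.2% higher and 30.3% lower. With so many genes called, a call alone did not set a gene apart from the table, so the sizes are given for each. At least a 2-fold difference was called for 5.4% of all genes, 3.11% higher and 2.29% lower, and TIMP3, MMP14 and PLAUR were past that size.

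TIMP3, the matrix-bound inhibitor, stood at 23.1, 23.4 and 20.6 CPM (counts scaled by TMM library size) in Control libraries 1 to 3 and at 60.5, 55.8 and 57.4 CPM in miR-885-5p libraries 1 to 3. Every miR-885-5p library was far above every Control library. The means were 22.4 ± 1.56 and 57.9 ± 2.40 CPM (SD, n = 3 each), a log2 fold change of 1.37 (SE 0.06, edgeR adjusted p = 2.50e-07). By absolute log2 fold change TIMP3 ranked 354 of 14034 genes.

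TIMP2, which inhibits MMP2 and also helps MMP14 to activate it, had 106, 108 and 107 CPM in Control libraries 1 to 3 and 154, 156 and 153 CPM with miR-885-5p. The libraries of a group lay close together and the groups were well apart, with a log2 fold change of 0.53 (SE 0.03, edgeR adjusted p = 1.78e-06). TIMP1, a soluble inhibitor of most secreted metalloproteinases, moved least of the 3, from 70.4, 75.8 and 73.9 CPM to 82.9, 82.9 and 90.3 CPM. Its groups did not overlap, but the gap between the highest Control and the lowest miR-885-5p library was small, and the log2 fold change was 0.22 (SE 0.05, edgeR adjusted p = 0.00440). All 3 inhibitor genes were therefore higher, by 16.4% for TIMP1, 44.2% for TIMP2 and 159% for TIMP3.

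The membrane-anchored metalloproteinase genes went opposite ways. MMP14, which cuts fibrillar collagen at the cell surface, had 19.1, 17.7 and 16.8 CPM in Control libraries 1 to 3 and 36.1, 36.2 and 39.4 CPM with miR-885-5p. The groups were separated by nearly the whole Control level, with a log2 fold change of 1.06 (SE 0.07, edgeR adjusted p = 1.62e-06). MMP15, another membrane-type protease, fell from 42.9, 41.8 and 44.2 CPM to 28.0, 30.4 and 31.6 CPM. No miR-885-5p library reached a Control library, and the log2 fold change was -0.52 (SE 0.06, edgeR adjusted p = 6.54e-05). MMP2, the secreted gelatinase, had 6.91, 5.32 and 6.09 CPM in Control and 6.02, 6.06 and 7.36 CPM with miR-885-5p. Those ranges overlapped, and a log2 fold change of 0.09 had a 95% interval from -0.22 to 0.39 (edgeR adjusted p = 0.628).

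In the plasminogen activator system the receptor gene fell most. PLAUR was counted at 57, 80 and 56 reads in Control libraries 1 to 3 and 20, 26 and 25 reads with miR-885-5p, or 1.20, 1.70 and 1.14 against 0.424, 0.451 and 0.478 CPM. The groups did not overlap, though at such counts the size is loosely known: the log2 fold change was -1.57 with a 95% interval from -2.15 to -0.98 (SE 0.26, edgeR adjusted p = 7.12e-04). PLAUR reached 1 CPM in Control libraries only. PLAT fell from 8.66, 10.1 and 8.83 CPM to 7.02, 5.64 and 7.42 CPM. Its groups were apart, with miR-885-5p library 2 the lowest, and the log2 fold change was -0.46 (SE 0.12, edgeR adjusted p = 0.0112).

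PLAU, the urokinase gene, had 47.4, 49.8 and 51.6 CPM in Control libraries and 47.1, 46.5 and 49.1 CPM with miR-885-5p. These values overlapped, and the log2 fold change of -0.06 had a 95% interval from -0.18 to 0.06 (edgeR adjusted p = 0.353). In the authors' deposited table PLAU and MMP2 had p of 0.335 and 0.577, and the other 7 genes had p of 9.53e-04 or lower, with the same signs as here. The headers name no test or adjustment for these p-values, whereas those given here are adjusted.

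**Figure D1:**
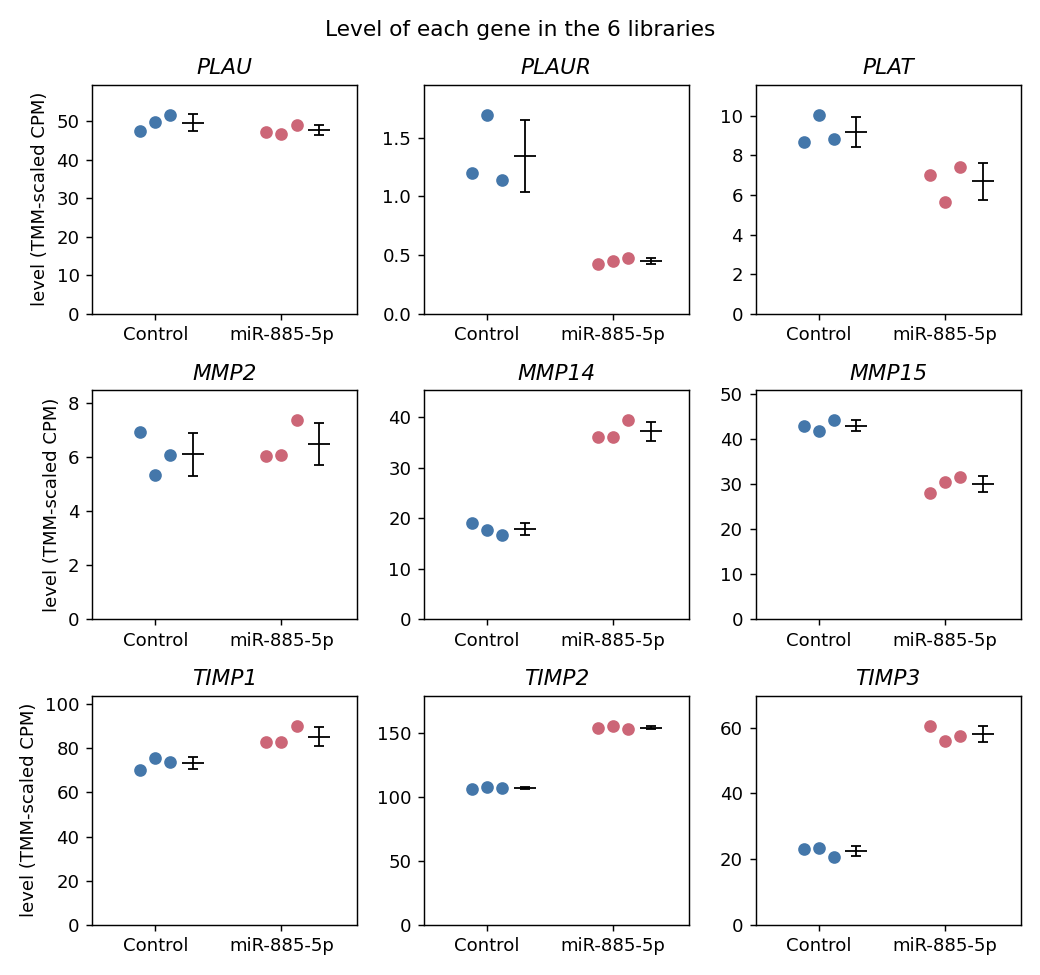
Level of each of the 9 genes in TMM-scaled CPM (vertical axes from 0) in 3 Control (blue) and 3 miR-885-5p (red) libraries, with the mean and SD of each group in black. TIMP3, MMP14, TIMP2 and TIMP1 lie higher and PLAUR, PLAT and MMP15 lower with miR-885-5p without overlap, and the groups overlap for PLAU and MMP2.

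Levels of different genes were compared per transcript length, as the authors' FPKM (fragments scaled by transcript length and library size). In Control libraries the order of mean FPKM ran from TIMP1 (73.9 ± 2.54, SD, n = 3) through TIMP2 (26.8 ± 0.160), PLAU (18.5 ± 1.29), MMP15 (9.12 ± 0.358), TIMP3 (4.37 ± 0.255), MMP14 (4.33 ± 0.257), PLAT (3.07 ± 0.216) and MMP2 (1.47 ± 0.202) to PLAUR (0.810 ± 0.204). Only TIMP3 and MMP14 overlapped as neighbours in that order. With miR-885-5p no neighbours overlapped, and TIMP3 (11.8 ± 0.390 FPKM) and MMP14 (9.39 ± 0.411 FPKM) stood above MMP15 (6.63 ± 0.433 FPKM). TIMP1, TIMP2 and PLAU kept the first 3 places and PLAT, MMP2 and PLAUR the last 3.

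Within pairs known to act together, chosen after their values were seen, FPKM ratios were taken in each library. TIMP2 exceeded MMP14 by 5.77, 6.27 and 6.56 times in Control libraries 1 to 3 and by 4.42, 4.47 and 4.02 times with miR-885-5p. PLAU exceeded its receptor gene PLAUR by 24.6, 17.4 and 29.3 times in Control and by 72.3, 69.6 and 63.8 times with miR-885-5p. Both ratios were apart between the groups and are given as a description, with no test. They restate the changes of the single genes and add no support to them. PLAU did not pass the edgeR test, so its ratio mainly repeats the fall of PLAUR. That gene had 20 to 80 reads per library and reached 1 CPM in Control libraries only.

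**Figure D2:**
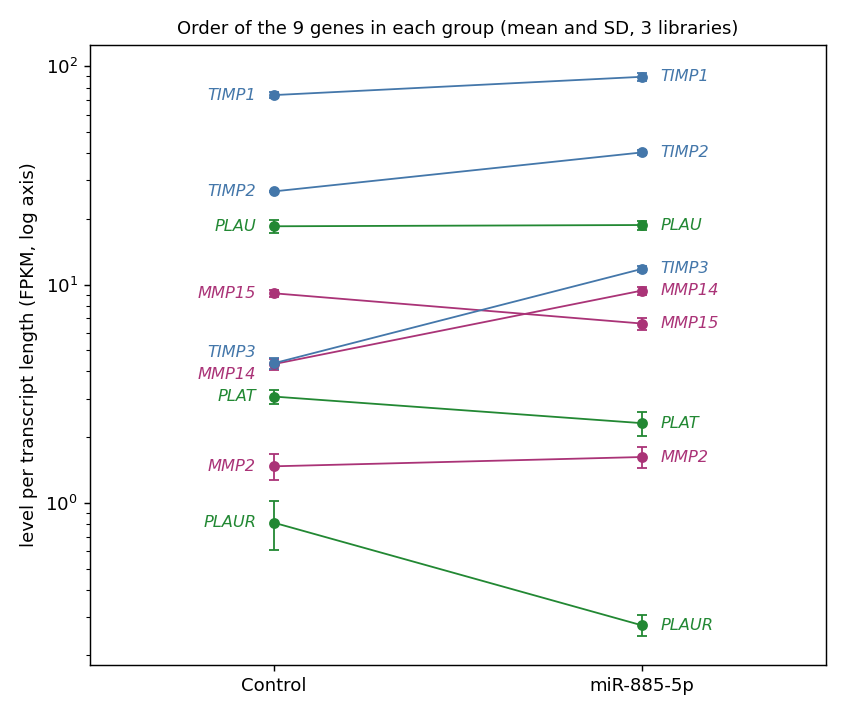
Mean FPKM with SD over 3 libraries (vertical axis, log scale) in Control and miR-885-5p for PLAU, PLAUR and PLAT (green), metalloproteinases (purple) and TIMPs (blue). Lines join the groups of 1 gene, and those of TIMP3 and MMP14 cross that of MMP15.

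Control libraries held 48392786, 48327113 and 49694754 counts and miR-885-5p libraries 46382314, 56409821 and 51664526. The microRNA gene MIR885 was not analysed here, so the overexpression was not checked. Of 9 epithelial and liver markers 3 were analysed, the keratin genes KRT8, KRT18 and KRT19, with a summed level of 1819 to 1936 FPKM in Control and 1603 to 1683 FPKM with miR-885-5p, where KRT8 and KRT19 were lower. EPCAM, CDH1, ALB, AFP, HNF4A and TTR were not analysed here. Of 7 fibroblast markers 4 were analysed (COL1A1, LUM, PDGFRA and PDGFRB), none of them at 0. Their sum was 2.94 to 3.53 FPKM in Control and 5.44 to 6.03 FPKM with miR-885-5p, with LUM and PDGFRB higher. COL1A1 and PDGFRA did not pass the edgeR test, with log2 fold changes of 0.16 and -0.35 (adjusted p = 0.600 and 0.255). The sum moved in the direction of TIMP3 and MMP14, and its part in their values was not tested. The 2 of 4 endothelial markers analysed, PECAM1 and KDR, summed to 0.197 to 0.292 FPKM in Control and 0.374 to 0.412 FPKM with miR-885-5p, with PECAM1 higher, and of 5 leukocyte markers only CD68 was analysed, at 56.9 to 65.5 and 62.6 to 63.8 FPKM. In bulk libraries fewer cells of a type and less RNA per cell cannot be told apart.

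The 9 genes lie on 8 chromosomes (GENCODE 29, GRCh38), with MMP2 (chr16:55389700-55506691) and MMP15 (chr16:58025566-58046901) on the same one. TIMP3 (chr22:32801701-32863043, plus strand) lies inside SYN3 and TIMP1 (chrX:47582313-47586789, plus strand) inside SYN1, each on the opposite strand, and PLAU (chr10:73909177-73917497) overlaps C10orf55 on the opposite strand over 7529 bases. How the counting treated strand is not stated in the labels or the file, so reads of these partners cannot be told apart from those of the 3 genes. TIMP2 and MMP2 also contain other annotated genes, among them CEP295NL on the strand of TIMP2 and MMP2-AS1 on the strand opposite to MMP2. PLAUR contains RN7SL368P on its own strand. Reads of these genes cannot be told apart from those of TIMP2, MMP2 and PLAUR either. SYN3, SYN1, C10orf55, CEP295NL, MMP2-AS1 and RN7SL368P were not analysed here. The 20 nearest tested genes around each gene had a median log2 fold change from -0.22 around TIMP3 to 0.08 around MMP15. This median had the sign of the gene itself for PLAUR, PLAT, MMP14 and TIMP1. It had the opposite sign for TIMP3, MMP15, TIMP2, MMP2 and PLAU.

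Promoter sequences, from 250 bases before to 50 after the start, were found in RefSeq (GRCh38.p14) for PLAU, PLAUR, MMP14, MMP15, TIMP1 and TIMP3, 6 of the 9. They were searched on both strands for the AP-1 motif TGANTCA, known from many protease genes, and for the GC box GGGCGG. AP-1 letters were found in PLAUR alone, at 186 bases before the start (chr19:43670349-43670355, minus strand), shown with the motif in capitals because PLAUR fell most.
PLAUR AP-1: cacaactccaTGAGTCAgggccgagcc
Of 14538 promoters of tested genes 5.34% held the AP-1 motif and 65.2% a GC box. TIMP3 and MMP15, which moved opposite ways, each held 5 GC boxes, and the promoters of TIMP1 and MMP14 held 2 and 1. PLAUR held none, and PLAU, with 2 annotated starts, held 3 at 1 of them and none at the other.

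Among named genes with a mean of at least 5 CPM, those whose pattern over the 6 libraries was most like that of TIMP3 were SNAI2, LAMB3 and SMARCD3. The root mean square difference of their log2 CPM from that of TIMP3, each centred on its Control mean, was 0.06, 0.07 and 0.07. For MMP15, the faller with the smallest p, the nearest were RBBP4, ICMT and PIGW at 0.02, 0.04 and 0.04. The likeness rests on 6 libraries in 2 groups and mostly reflects a similar difference between groups: log2 fold changes were 1.36, 1.43 and 1.41 for the first 3 genes and -0.52, -0.49 and -0.55 for the others.

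Other genes of the same systems were taken from 7 lists ordered by role, with 46 of 82 listed genes tested. Of these 13 were higher and 13 lower and 20 did not pass the edgeR test, which is near the share over all genes. Over all genes 26.3% were higher and 26.5% lower, and the counts of each list below are to be read beside these shares. With so few genes per list, no list was tested as a set. Their median log2 fold change was 0.01, against 0.09 for the 9 genes and 0.00 for all genes tested. The lists were chosen with earlier results of these data known, and genes outside the rule of 4 per list, named below to complete small counts, were chosen after their values were seen.

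**Figure D3:**
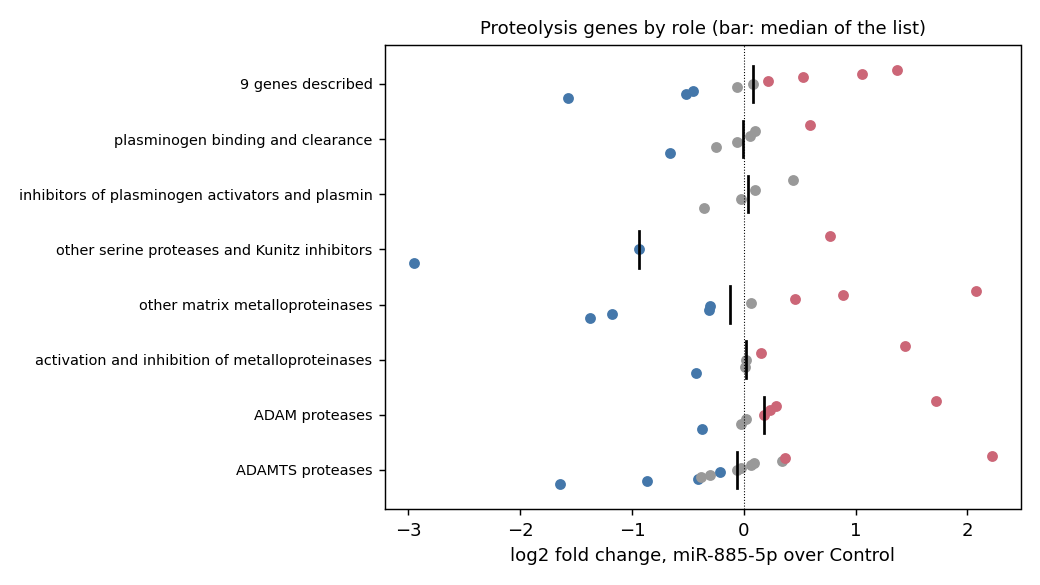
Log2 fold change, miR-885-5p over Control (horizontal axis), of each tested gene in the set of 9 and in the 7 role lists, with red for higher, blue for lower and grey for not past the edgeR threshold, and a black bar at the median of each list. Every list with at least 5 tested genes has its median within 0.18 of 0, and most hold genes on both sides.

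Among 6 tested genes that bind plasminogen or clear its activators 1 rose and 1 fell, where 52.9% of all genes were called. LRP1, the endocytic receptor that takes up urokinase and tissue activator bound to their inhibitors, rose from 112 ± 0.822 to 170 ± 7.86 CPM (n = 3 each, log2 fold change 0.60, SE 0.04). ENO1, an enolase that also binds plasminogen at the cell surface, had a log2 fold change of -0.66 (SE 0.04). The annexin gene ANXA2 and its partner S100A10, which together form a plasminogen receptor, stood at -0.06 and 0.05 without passing (edgeR adjusted p = 0.161 and 0.426).

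Of 4 tested inhibitor genes of this system that are reported here, 0 passed the edgeR test in either direction, against 52.9% of all genes. Unadjusted edgeR p was below 0.05 for 0 of them, and 0 passed in DESeq2 or limma-voom. With 4 genes, some at low counts, this does not show that the inhibitors were unchanged. SERPINE2, which encodes protease nexin 1, an inhibitor of urokinase and thrombin, had 355, 371 and 370 CPM in Control libraries and 359, 363 and 356 CPM with miR-885-5p. These values overlapped, with a log2 fold change of -0.02 (SE 0.03, edgeR adjusted p = 0.581). SERPING1, the C1 inhibitor gene, SERPINI1, which encodes the tissue activator inhibitor neuroserpin, and SERPINF2, the plasmin inhibitor gene, had log2 fold changes of 0.10, 0.44 and -0.36 with adjusted p from 0.155 to 0.478.

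Of the serine protease list 3 of 11 genes were tested, 1 higher and 2 lower, where 52.9% of all genes were called. HABP2, a secreted protease that can activate urokinase, fell from 9.67, 11.1 and 6.98 CPM to 0.700, 1.41 and 1.45 CPM. All miR-885-5p libraries were far below Control, with a log2 fold change of -2.95 (SE 0.27). The Kunitz inhibitor genes moved apart: TFPI2, which inhibits plasmin, rose by 0.77 (SE 0.07) and SPINT2, which inhibits membrane serine proteases, had a value of -0.94 (SE 0.18).

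Of 20 other matrix metalloproteinase genes 8 were tested, of which 3 rose and 4 fell. Over all genes 26.3% were higher and 26.5% lower. MMP7, the matrilysin gene, fell from 104, 107 and 105 CPM in Control libraries 1 to 3 to 45.2, 44.2 and 49.8 CPM with miR-885-5p. The groups were far apart, with a log2 fold change of -1.18 (SE 0.05, edgeR adjusted p = 1.82e-07). MMP1, the interstitial collagenase gene, fell from 13.8, 15.7 and 14.6 CPM to 5.94, 5.08 and 5.96 CPM, a log2 fold change of -1.38 (SE 0.10, edgeR adjusted p = 3.16e-06).

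MMP7 (chr11:102520508-102530753), MMP1 (chr11:102789920-102798160) and the stromelysin gene MMP3 (chr11:102835801-102843803) lie in 1 cluster of metalloproteinase genes. MMP3 changed much less, at -0.30 (SE 0.10, edgeR adjusted p = 0.0296), and its call was lost without Control library 1 (adjusted p = 0.0649), without miR-885-5p library 1 (adjusted p = 0.0829) and under total-count scaling (adjusted p = 0.0589). The fourth to fall was MMP24, a membrane-type gene, at -0.31 (SE 0.07).

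MMP11, the stromelysin-3 gene, rose from 0.841, 1.51 and 0.731 CPM to 4.43, 4.20 and 4.36 CPM. Its groups were apart at a low level, with a log2 fold change of 2.08 (SE 0.26, edgeR adjusted p = 1.17e-04). The membrane-type genes MMP16 and MMP25 also rose, by 0.46 (SE 0.09) and 0.89 (SE 0.24), and MMP19 was at 0.07 (edgeR adjusted p = 0.778). The membrane-type genes thus went both ways, with MMP14, MMP16 and MMP25 higher and MMP15 and MMP24 lower.

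FURIN, the convertase that removes the inhibitory propeptide of membrane-type metalloproteinases and MMP11, rose from 24.9, 22.9 and 22.2 CPM to 62.2, 63.2 and 65.0 CPM. Every miR-885-5p library was over 2 times every Control library, with a log2 fold change of 1.44 (SE 0.06, edgeR adjusted p = 1.12e-07). BSG, which encodes an inducer of metalloproteinases, rose by 0.16 (SE 0.04) and the proteoglycan gene SPOCK1 had a value of -0.43 (SE 0.08). In all 2 of 5 tested genes of this list rose and 1 fell, where 52.9% of all genes were called. PCSK7, another convertase, and RECK, a membrane-anchored inhibitor, were at 0.01 and 0.02 and did not pass (edgeR adjusted p = 0.887 and 0.949).

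All 7 listed ADAM genes, which encode membrane-anchored sheddases and related proteases, were tested. Of these 4 rose and 1 fell, against 26.3% higher and 26.5% lower over all genes. ADAM8 rose from 1.11 ± 0.113 CPM in Control to 3.66 ± 0.259 CPM with miR-885-5p (n = 3 each, log2 fold change 1.72, SE 0.19). ADAM12 and ADAM10 rose by 0.29 and 0.24 and ADAM9 had a value of -0.37, each with an SE of 0.04 to 0.05. The smallest rise was that of ADAM15 at 0.18 (edgeR adjusted p = 0.0114), a call lost without Control library 1 (adjusted p = 0.0564).

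Of 13 tested ADAMTS genes, which encode secreted proteases of the matrix and of plasma, 2 rose and 4 fell, near the share over all genes. ADAMTS13, which cuts von Willebrand factor, rose from 0.306 ± 0.0120 CPM in Control to 1.43 ± 0.113 CPM with miR-885-5p (n = 3 each, log2 fold change 2.22, SE 0.24). ADAMTS10, ADAMTS14 and ADAMTS15 had values of -1.64, -0.87 and -0.41. ADAMTS13 reached 1 CPM in miR-885-5p libraries only and ADAMTS10 in Control libraries only. The other calls were weak. ADAMTS5, an aggrecanase, rose by 0.37 (edgeR adjusted p = 0.0272), which was lost without Control library 1 or 2 or miR-885-5p library 3 (adjusted p = 0.0761, 0.0517 and 0.101). ADAMTS9, which holds the 8mer shown above, had a value of -0.21 (edgeR adjusted p = 0.0341), lost without Control library 1 or 2 or miR-885-5p library 1 or 3 (adjusted p = 0.0759, 0.0693, 0.0763 and 0.130), in DESeq2 (adjusted p = 0.0531) and under total-count scaling (adjusted p = 0.0890).

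**Figure D4:**
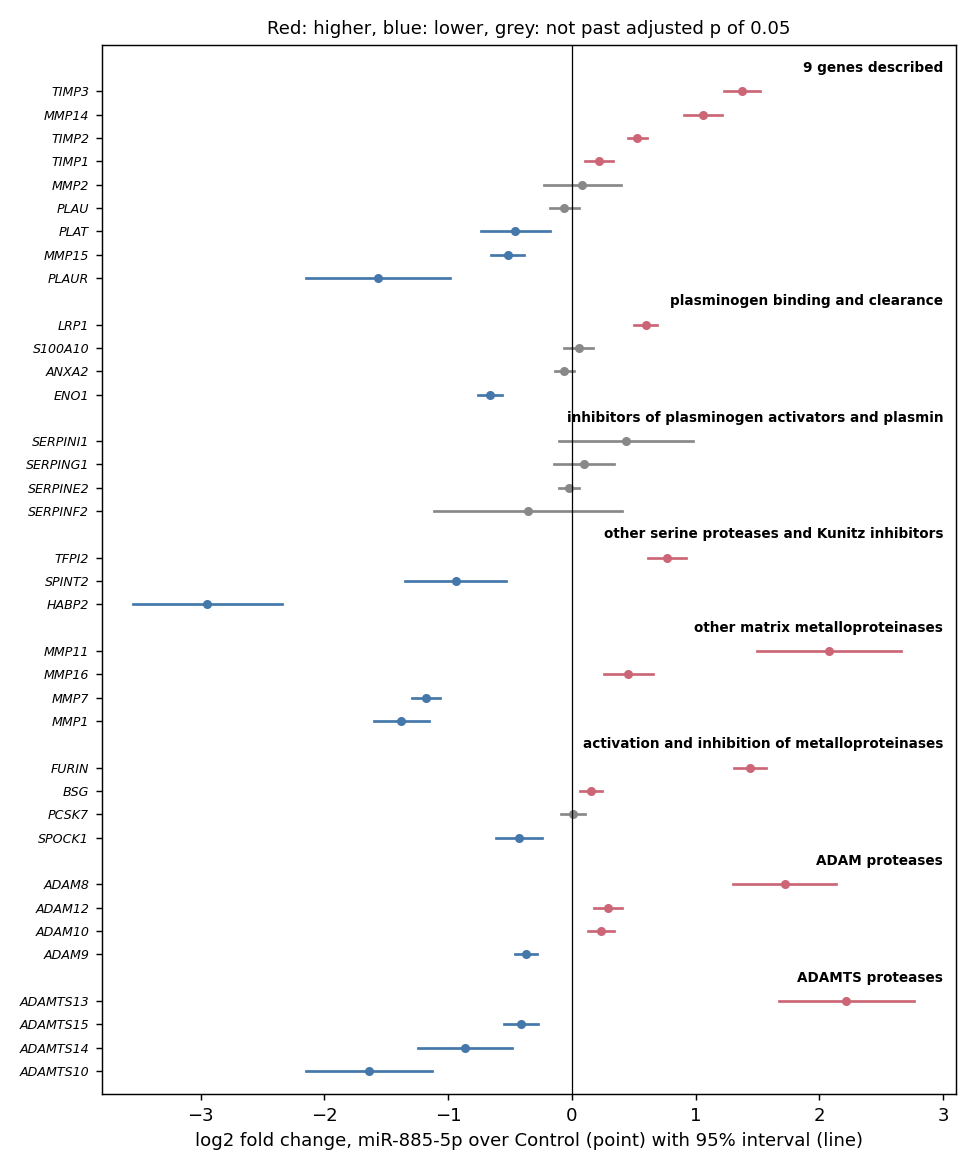
Log2 fold change, miR-885-5p over Control (points), with its 95% interval (lines) for the 9 genes and for the genes named from each role list by smallest adjusted p. Red is higher, blue is lower and grey is not past an edgeR adjusted p of 0.05, and HABP2 at -2.95 and ADAMTS13 at 2.22 are the extremes.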

How the data were processed

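The authors deposited 1 table with a whole-number count per gene and library and no normalization, per the file headers. It also holds the authors' FPKM per gene and library, used here only to compare levels between genes and for marker sums, and a deposited p-value and log2 fold change per gene, with no test named in the headers. Tools listed in the submitters' processing notes, with no role or order, are DESeq2 1.38.3, HISAT2 2.0.4 and StringTie 2.2.1, and the build is GRCh38. Libraries were made from total RNA with a NEBNext Ultra kit, per the labels' protocols. Neither the counting tool nor any filter on weak genes is stated there. Every row passed a filter at 1 CPM in at least 3 libraries. Some genes passed it only through the group where they were high, among them PLAUR, ADAMTS10 and ADAMTS13. Their place among the tested genes therefore depended on that group. 1614 rows carry no gene name and stayed in the fit.

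The quasi-likelihood test of edgeR 4.0.16 (R 4.3.3) was fitted to all counts with TMM scaling. The filterByExpr filter removed 0 genes, p-values were adjusted over 14034 genes (Benjamini-Hochberg) and the threshold was 0.05. SE was taken as the absolute log2 fold change over the square root of F. The fit was tested on simulated counts. Within groups the chi-square per degree of freedom between libraries was at least 7.95, so no library was a copy of another. It was 12.3 for Control libraries 1 and 2, 18.2 for 1 and 3 and 40.5 for 2 and 3, and at most 11.0 among miR-885-5p libraries. Control library 3 thus lay furthest from the others of its group. Groups came from the titles. The 9 genes and the lists were chosen with earlier results of these data known. Some listed genes are not reported here and were left out of the list counts. Named genes were the 9, the 4 with the smallest adjusted p of each list and the 3 most alike in pattern. Alternatives were DESeq2 1.42.0, limma-voom (limma 3.58.1), 3 scalings, 2 filters, a replicate block, a 1.5-fold test and leaving out each library. Seed sites were searched in the longest 3′ UTR of GENCODE 29 protein-coding transcripts.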

Additional observations from a re-analysis of the deposited data

How the results depend on the processing

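The 4 higher and 3 lower calls among the 9 genes had the same counts under DESeq2, limma-voom, the 3 other scalings, the replicate block and without each library. Both filter settings kept the same 14034 genes and repeated the main fit, so their equal counts are no separate check. The test against a 1.5-fold change left 2 higher (TIMP3 and MMP14) and 1 lower (PLAUR). It left 5 higher and 4 lower in the role lists and 493 higher and 410 lower in the whole table, since it asks for a larger change. Without each library in turn the role lists had 11 to 14 genes higher and 11 to 13 lower, and over all genes 3101 to 3814 were higher and 3182 to 3864 were lower. Over 48 named genes and 15 settings, 681 of 720 values kept their side of the threshold. That count includes the values of both filter settings, which could not differ from the main fit. The other 39 lost the call, 24 of them in the 1.5-fold test and 15 elsewhere, in MMP3, ADAM15, ADAMTS5 and ADAMTS9. The sign differed in 7 values of 6 genes, none of them called: MMP2 (without Control library 2 and without miR-885-5p library 3), S100A10, SERPINE2, SERPINF2, SERPING1 and PCSK7 (1 setting each).

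Same-numbered libraries of the groups did not deviate together (correlations of -0.184, -0.0575 and -0.151 across genes). Libraries with different numbers had correlations from 0.01 to 0.14. With 3 libraries per group these values cannot show whether same-numbered libraries were handled together. With the replicate block 4 and 3 of the 9 genes, 12 and 12 of the role lists and 3329 and 3366 of all genes were higher and lower. It ended the calls of ADAMTS5 (adjusted p = 0.0538) and ADAMTS9 (adjusted p = 0.0618). Among the 9 genes depth limits PLAUR most, with 20 to 80 reads per library.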
